A study of Mus musculus with 12 samples.

Results

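Apolipoproteins are the protein coats of plasma lipoproteins, and 10 of their genes (Apoa1, Apoa2, Apoa4, Apoa5, Apob, Apoc1, Apoc2, Apoc3, Apoe and Apom) were followed here in mouse liver with an excess of ChREBP. They are taken by name, and each was read on the array row whose annotation carries its symbol alone, the brightest where there were several. This left 9 of the 10, among 19938 genes of the table that have such a row. Apoc2, which encodes the cofactor of lipoprotein lipase, shares its only row with a neighbouring gene model, and no value is given for it. The livers came from fed male C57BL/6J mice that had received, through a tail vein, an adenovirus for either GFP, a fluorescent protein that serves as the control, or ChREBP, the glucose-responsive transcription factor encoded by Mlxipl. Each group held 6 mice with 1 array each, and tissue was taken 3 weeks after the injection. The labelled age of 8 weeks is, in the study's methods for its own viruses, the age at injection. All 12 mice thus carried an adenovirus. The sources used here do not give the promoter of the vectors, the share of hepatocytes that took them up, or which isoform of ChREBP was made and from which species.

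The liver makes most plasma apolipoproteins. Apob is the scaffold on which very low density lipoprotein (VLDL) is built, 1 molecule per particle, and it stays with the particle until uptake. The smaller proteins move between particles. Those of the C group and Apoa5 tune the breakdown of triglyceride by lipoprotein lipase, Apoe is the ligand for the receptors that clear remnants, and Apoa1, Apoa2 and Apom belong mainly to high density lipoprotein (HDL). Apoa4, a protein of chylomicrons and HDL, is made by the intestine and, in rodents, also by the liver. In the RefSeq gene order Apoa1, Apoc3, Apoa4 and Apoa5 stand side by side on chromosome 9, and Apoc2, Apoc4, Apoc1 and Apoe on chromosome 7, whereas Apoa2, Apob and Apom lie alone on chromosomes 1, 12 and 17.

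Promoter windows from 250 bases before to 50 bases after the start site were taken from RefSeq (GRCm38.p6), which held at least 1 for 8 of the 10 genes. The windows printed belong to the 4 members that passed the test described further on, and to Apoa5, a neighbour of Apoa4 that did not. Capitals mark the E-box CACGTG, the letters to which ChREBP binds in pairs.
Apoa4, chr9:46240594-46240893, + strand: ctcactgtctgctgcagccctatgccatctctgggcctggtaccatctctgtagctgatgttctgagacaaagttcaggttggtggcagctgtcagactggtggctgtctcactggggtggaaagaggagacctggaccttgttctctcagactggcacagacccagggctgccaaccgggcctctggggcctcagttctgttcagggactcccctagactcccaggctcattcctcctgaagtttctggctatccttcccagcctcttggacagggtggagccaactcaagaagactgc
Apoa1, chr9:46228380-46228679, + strand: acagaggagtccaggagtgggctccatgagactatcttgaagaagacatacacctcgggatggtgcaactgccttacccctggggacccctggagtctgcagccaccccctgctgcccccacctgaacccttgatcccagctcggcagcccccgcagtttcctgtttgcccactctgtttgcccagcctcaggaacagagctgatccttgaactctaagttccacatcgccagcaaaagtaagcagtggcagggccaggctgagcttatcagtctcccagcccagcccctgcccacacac
Apoa5, chr9:46268358-46268657, + strand: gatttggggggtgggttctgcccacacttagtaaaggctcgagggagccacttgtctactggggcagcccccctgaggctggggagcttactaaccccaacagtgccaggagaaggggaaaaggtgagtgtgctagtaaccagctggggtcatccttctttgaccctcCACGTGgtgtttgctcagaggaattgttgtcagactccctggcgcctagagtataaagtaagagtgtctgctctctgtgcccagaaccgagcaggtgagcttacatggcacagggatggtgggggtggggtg
Apob, chr12:7977427-7977726, + strand: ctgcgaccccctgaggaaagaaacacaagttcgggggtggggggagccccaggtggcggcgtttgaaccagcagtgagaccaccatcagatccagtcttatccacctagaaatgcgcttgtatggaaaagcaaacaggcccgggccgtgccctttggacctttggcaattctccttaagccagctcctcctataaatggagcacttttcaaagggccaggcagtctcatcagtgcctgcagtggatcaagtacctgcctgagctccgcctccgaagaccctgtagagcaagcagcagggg
Apom, chr17:35131752-35132051, - strand: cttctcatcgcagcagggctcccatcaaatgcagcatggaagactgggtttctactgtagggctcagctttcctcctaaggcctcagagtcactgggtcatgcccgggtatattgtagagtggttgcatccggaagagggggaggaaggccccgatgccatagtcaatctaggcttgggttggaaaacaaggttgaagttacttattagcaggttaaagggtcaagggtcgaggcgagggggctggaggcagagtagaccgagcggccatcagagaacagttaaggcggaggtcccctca

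Of the member windows, the E-box CACGTG was found only in those of Apoa5, where it begins at position -82 from the start site in the window printed and at -107 in a second, overlapping window. The same letters occur in 7.15% of all 32851 windows of this length, read on both strands. A looser box, CACGNG, occurs in 27.5% of all windows and, beside Apoa5, in 1 of 3 windows of Apoe. No window of any gene holds 2 boxes CACGTG set 5 bases apart. The direct repeat of AGGTCA with 1 base between the copies, an ideal site for HNF4 and related receptors, is in 0.0396% of all windows and in none of the members. These letters are a description of short windows, and they say nothing of sites further away.

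The arrays were checked first. Mlxipl itself went from 9.32 ± 0.23 in GFP to 10.89 ± 0.08 in ChREBP livers (SD, n = 6 each), on the log2 scale of the deposited RMA values. On ChREBP 4 and ChREBP 5 the summed level of 10 pancreatic acinar markers was 15.5 and 15.3. It was 9.25 to 10.9 on the other ChREBP arrays and at most 9.52 on a GFP array. Results were therefore also computed without ChREBP 4 and ChREBP 5. That fit kept ChREBP 2 (10.9) and ChREBP 6 (9.89), which also lay above every GFP array. Adipoq, a hormone gene of fat cells, was highest on ChREBP 6 (9.02), GFP 4 (8.52) and GFP 6 (8.32), against 5.01 to 7.25 on the other 9 arrays, and results were also computed without GFP 6 and ChREBP 6. The summed level of 9 adipocyte markers was instead highest on GFP 4 (13.01) and GFP 2 (12.91), with 12.85 on GFP 6 and 12.84 on ChREBP 6. Of these markers 4 were higher and 2 lower in ChREBP livers (66.7% passed, beside 27% of all genes), with a median of -0.04. Most of the hepatocyte markers chosen were a little lower in ChREBP livers. Of 8 hepatocyte markers 6 fell (Arg1, Fgb, Cps1, Ahsg, Serpina1c and Ttr), 0 rose, and Alb (-0.07) and Hpx (-0.05) did not pass. Thus 75% passed, beside 27% of all genes. The mean of the 8 was 0.23 lower, at 12.38 against 12.61, and their summed level was 15.41 to 15.54 in ChREBP and 15.64 to 15.75 in GFP livers. In whole liver fewer hepatocytes and less RNA per hepatocyte cannot be told apart, nor can either be told from lower expression of these markers alone. A scaling that shifts each array to equal hepatocyte markers, chosen after the data were seen, raises the median of all genes by 0.23, and its effect is given with the results.

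The question for the members was which apolipoprotein transcripts are altered by an excess of ChREBP. Apoa4 rose close to 3-fold, Apom fell by 45.5%, Apoa1 fell by 17.2% and Apob fell by 13.0%, but the falls of Apoa1 and Apob did not pass with the scaling to hepatocyte markers. The other 5 measured members, Apoa2, Apoa5, Apoc1, Apoc3 and Apoe, did not pass. On the deposited values none of them had a 95% interval that reached beyond 0.17 in either direction on the log2 scale. With the scaling to hepatocyte markers these 5 passed as higher, at 0.19 to 0.32. The threshold was an adjusted p under 0.05 in limma, adjusted by Benjamini-Hochberg over all 19938 genes. All differences are ChREBP minus GFP. Thus 1 member was higher and 3 were lower, against 13.3% of all genes higher and 13.7% lower. With the scaling to hepatocyte markers 6 members were higher and 1 lower, against 52.7% of all genes higher and 3.2% lower on that scale. The 4 of 9 that passed stand beside 27% of all genes. The median difference of the 9 members was -0.03, and that of all genes was -0.04.

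**Figure D1:**
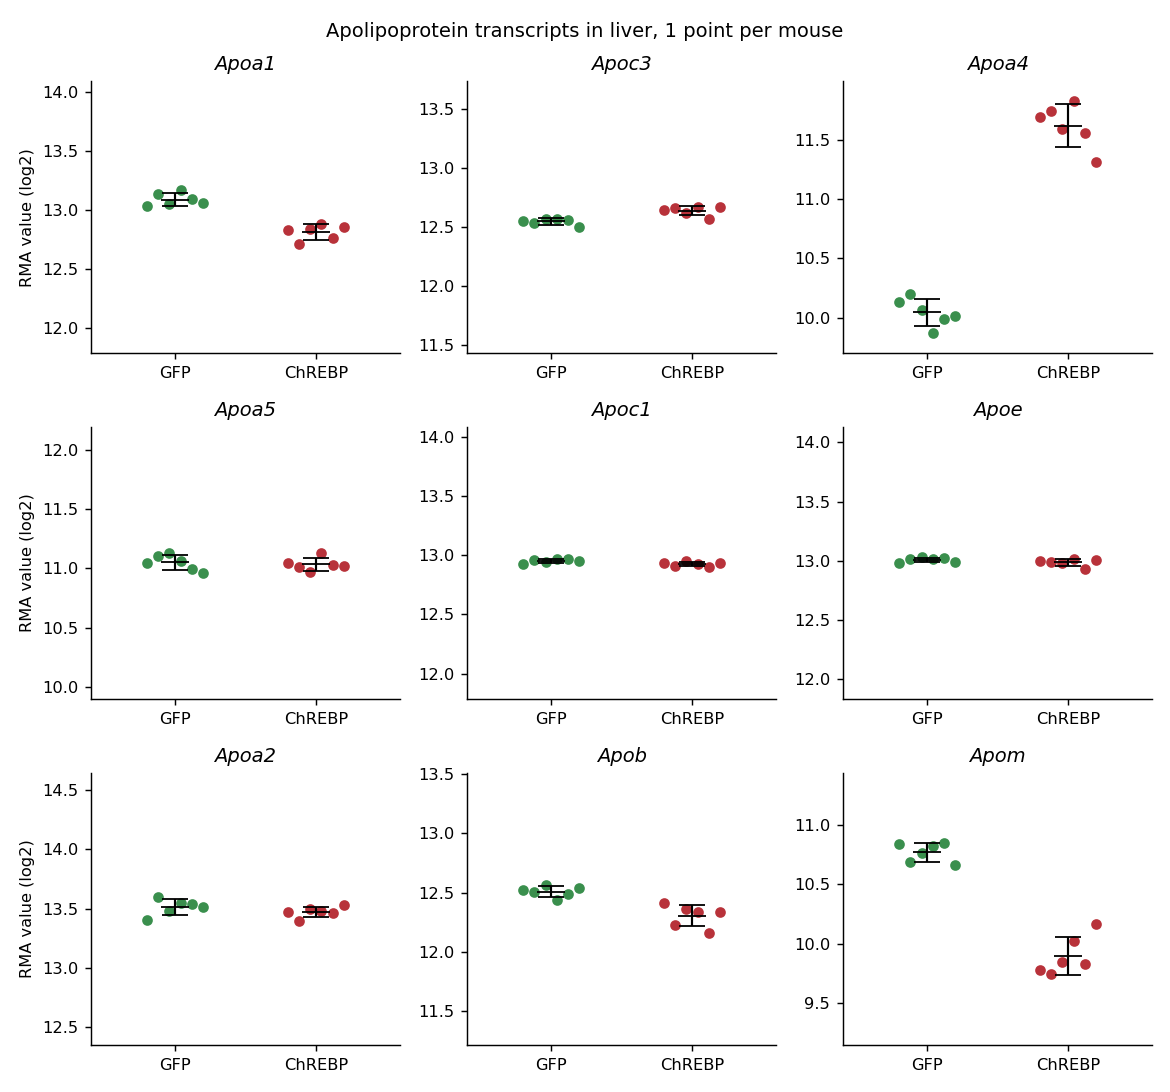
RMA values (log2 scale, each panel spanning the same number of units) of the 9 measured apolipoproteins in 6 GFP livers (green points) and 6 ChREBP livers (red points), with black bars for the mean and SD. For Apoa4 all red points lie above the green ones, for Apom, Apoa1 and Apob all lie below them, and the groups overlap for the other 5. With arrays scaled to hepatocyte markers Apoa1 and Apob did not pass.

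Apoa4 had the largest difference of the 9. Its values in GFP livers were 9.87 at the lowest, 10.04 at the median and 10.20 at the highest. In ChREBP livers they were 11.32, 11.64 and 11.83. The groups were 1.12 apart at their closest, and the least response, on ChREBP 6, was still above every control. The means were 10.04 ± 0.12 and 11.62 ± 0.18 (SD, n = 6 each), so that ChREBP livers had 2.99 times the GFP level (difference 1.58, SE 0.08, adjusted p = 1.05e-08 by limma). Of all genes, 99.1% had a difference of the same size or smaller.

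The intestine is the other main source of Apoa4, so transcripts of gut epithelium were examined beside it. Of 12 markers 4 were higher (Lct, Slc5a1, Fabp2 and Vil1) and 0 lower, so that 33.3% passed, beside 27% of all genes. The summed level of the 12 was 12.13 to 12.37 in GFP and 12.40 to 12.54 in ChREBP livers. Fabp2, which hepatocytes also make, carried most of that sum. The sucrase-isomaltase gene Sis (0.10), the mucin gene Muc2 (-0.05) and the intestinal transcription factor gene Cdx2 (-0.07) did not pass, and neither did Alpi (0.16), Cdh17 (0.20), Cdx1 (-0.14) and Mep1b (-0.13). Reg3b, which the injured pancreas also makes, did not pass at 1.36 (adjusted p = 0.0928 by limma), with values up to 8.29 in ChREBP livers and up to 4.14 in GFP livers. The part of these transcripts in the Apoa4 difference was not tested. Apoa4 was 11.83 and 11.56 on ChREBP 4 and ChREBP 5, and without both its difference was 1.54 (adjusted p = 2.15e-07 by limma).

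Apom encodes the lipocalin that carries sphingosine 1-phosphate on HDL, and it fell the most. The GFP arrays had 10.66, 10.80 and 10.85 as the lowest, median and highest values, and the ChREBP arrays had 9.74, 9.84 and 10.16. No ChREBP liver reached the lowest control, from which the highest was 0.50 away. The means were 10.77 ± 0.08 and 9.90 ± 0.16 (SD, n = 6 each), and the difference of -0.88 had an SE of 0.07 (adjusted p = 7.67e-07 by limma). Without ChREBP 4 and ChREBP 5 it was -0.89. The 2 highest ChREBP values were those of ChREBP 6 (10.16) and ChREBP 4 (10.03). ChREBP 6 was thus nearest to the controls for both Apoa4 and Apom. It had the most Adipoq, but not the highest summed level of the adipocyte markers. Without GFP 6 and ChREBP 6 the difference was 1.63 for Apoa4 and -0.95 for Apom. GFP 4, with more Adipoq than GFP 6, was kept in that fit, and without GFP 4 alone the differences were 1.54 and -0.86. The part of fat cells in either gene was not tested.

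Apoa1, the main protein of HDL and the activator of LCAT, had values of 13.03, 13.07 and 13.17 in GFP livers and 12.71, 12.84 and 12.89 in ChREBP livers. The groups did not overlap and were 0.15 apart. Its difference was -0.27 (SE 0.04, adjusted p = 0.000346 by limma). Apob had 12.44, 12.51 and 12.57 in GFP livers and 12.16, 12.34 and 12.41 in ChREBP livers. Here the groups were only 0.02 apart, and the difference was -0.20 (SE 0.05, adjusted p = 0.00683 by limma). The SD of Apob was 0.04 among the controls and 0.09 among ChREBP livers. Without ChREBP 4 and ChREBP 5 the differences were -0.28 for Apoa1 and -0.17 for Apob (adjusted p = 0.0249 by limma).

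The groups did not overlap in Apoa4, Apom, Apoa1 and Apob, that is in 4 of 9 members, beside 15.2% of all genes. The exact two-sided permutation test gave p = 0.00216 for each of these 4, the smallest that the 924 assignments of the arrays allow. Any gene whose groups do not overlap gets this p, so it restates the separation and adds no further evidence.

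**Figure D2:**
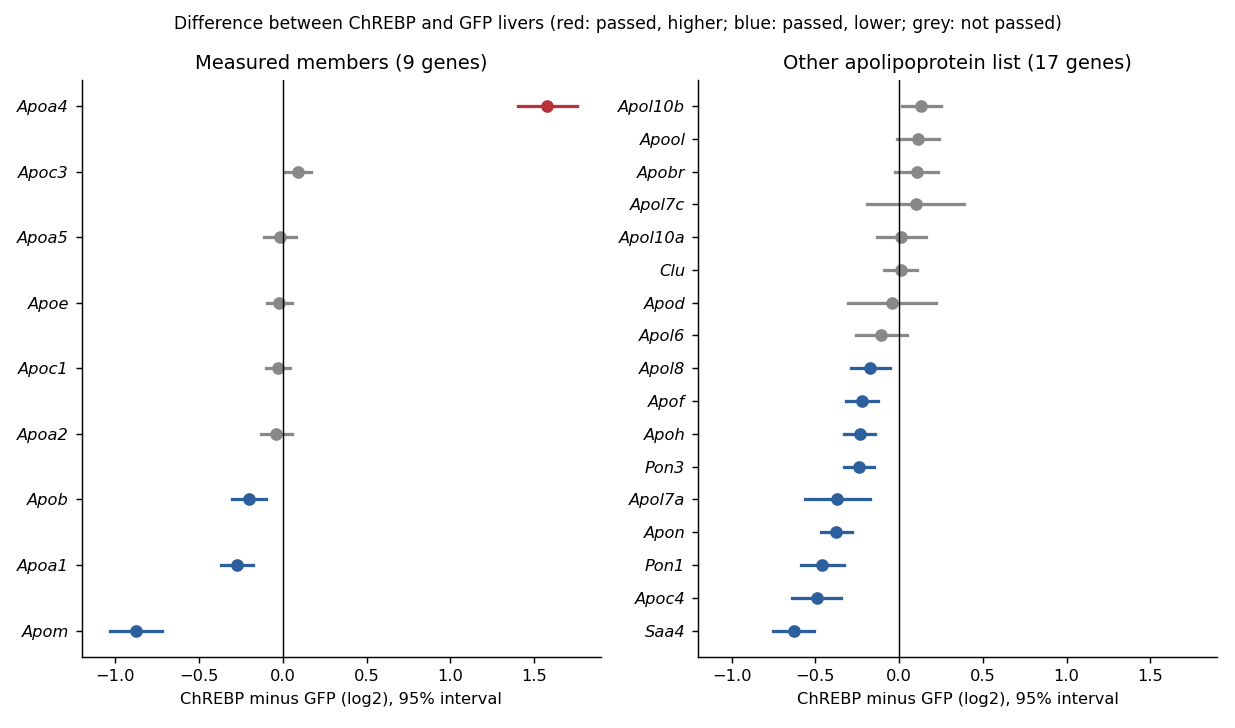
Difference between ChREBP and GFP livers (log2 scale) with the 95% interval of the limma fit, for the 9 measured members on the left. On the right are 17 further genes, for apolipoproteins, HDL-bound proteins and related products. Red marks a gene that passed as higher, blue one that passed as lower and grey one that did not pass. Apoa4 is the only red point among these 26 genes. With arrays scaled to hepatocyte markers 6 members and 6 of the further genes passed as higher, beside 52.7% of all genes on that scale.

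Among the members that tune lipolysis, Apoc3, an inhibitor of lipoprotein lipase and of remnant uptake, came nearest to the threshold. It had 12.50, 12.56 and 12.57 in GFP livers and 12.57, 12.65 and 12.67 in ChREBP livers, and the groups met at 12.57. The difference was 0.09 (SE 0.04, 95% interval 0.01 to 0.17, adjusted p = 0.0825 by limma), while the exact permutation p was 0.00433 before any adjustment. It passed with trended moderation (adjusted p = 0.00703) and with the analysis of variance (adjusted p = 0.00661). Its SD was 0.03 in GFP and 0.04 in ChREBP livers. Apoa5, which promotes the action of lipoprotein lipase, had a difference of -0.02 (95% interval -0.11 to 0.08). Its values ran from 10.96 to 11.13 in GFP and from 10.97 to 11.13 in ChREBP livers, so that the ranges were nearly the same. Apoc1, an inhibitor of lipoprotein uptake, had a difference of -0.03 (95% interval -0.10 to 0.05), with values from 12.92 to 12.97 and from 12.90 to 12.95. Its exact permutation p was 0.0325 before any adjustment.

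Apoe differed by -0.02 (95% interval -0.09 to 0.06), with values from 12.98 to 13.03 in GFP and from 12.93 to 13.02 in ChREBP livers. Macrophages also make Apoe, and in the same livers 7 of 12 Kupffer cell and macrophage markers were higher (Cd5l, Cd68, Adgre1, C1qa, C1qb, C1qc and Csf1r) and 4 lower (Timd4, Clec4f, Vsig4 and Marco), with a summed level of 12.40 to 12.65 in GFP and 12.67 to 13.06 in ChREBP livers. Of 9 markers of lipid-associated macrophages 7 were higher, led by Mmp12 (3.70), and 0 lower, while Trem2 (-0.10) and Fabp5 (0.60) did not pass, and their summed level moved from 11.73 to 12.26 in GFP up to 13.27 to 13.37 in ChREBP livers. Of the Kupffer cell and macrophage list 91.7% passed and of the lipid-associated list 77.8%, beside 27% of all genes. The part of macrophages in the Apoe signal was not tested. Apoa2, the second protein of HDL, differed by -0.04 (95% interval -0.13 to 0.05), from 13.40 to 13.60 against 13.40 to 13.53. It lay within 0.09 of 13.68, the highest value on any array, and Apoc1, the farthest of the next 3 members, came within 0.71 of it. Whether signals so near the top of the scale read a change in full was not tested.

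Neighbours on a chromosome differed in their values. In the cluster on chromosome 9 Apoa4 was higher, Apoa1 at one end was lower (though not with the scaling to hepatocyte markers), and Apoc3 between them and Apoa5 at the other end did not pass. The interval of Apoa4 (1.40 to 1.75) lay above those of Apoa1 (-0.37 to -0.18), Apoc3 and Apoa5. In the cluster on chromosome 7 Apoc4, a minor liver apolipoprotein of the further list, fell by 0.49 (SE 0.07, adjusted p = 8.70e-05 by limma), from 10.80 ± 0.07 to 10.31 ± 0.16 (SD, n = 6 each). Its neighbours Apoc1 and Apoe did not pass on the deposited values, and their intervals lay above that of Apoc4 (-0.64 to -0.35).

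**Figure D3:**
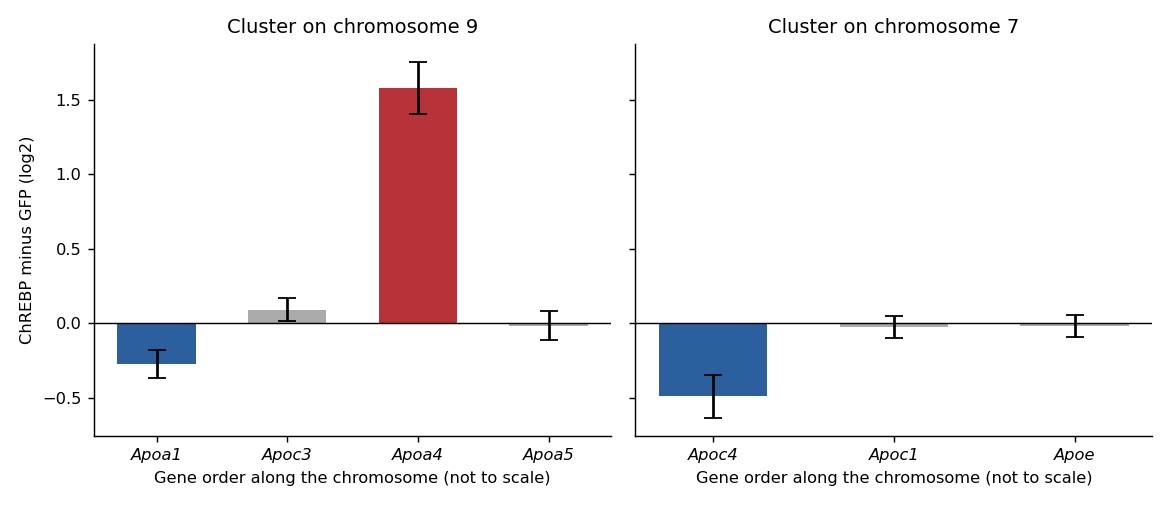
Difference between ChREBP and GFP livers (log2 scale, bars with 95% intervals) for the genes of the clusters on chromosome 9 (Apoa1, Apoc3, Apoa4, Apoa5) and chromosome 7 (Apoc4, Apoc1, Apoe), in their order along the chromosome. Red passed as higher, blue as lower and grey did not pass, and Apoc2 is left out because it has no row of its own. Apoa4 and Apoc4 kept their calls with arrays scaled to hepatocyte markers, Apoa1 did not, and the others then passed as higher.

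Further genes of the family and genes related to it were also followed. Of 17 other measured genes for apolipoproteins, HDL-bound proteins and related products, 0 rose and 9 fell, beside 13.3% of all genes higher and 13.7% lower. With the scaling to hepatocyte markers 6 rose and 4 fell, beside 52.7% of all genes higher and 3.2% lower. Their median was -0.17 beside -0.04 for all genes (0.06 beside 0.19 when scaled). The largest falls were those of Saa4 (-0.63, SE 0.06), a constitutive serum amyloid A of HDL, Apoc4, the paraoxonase gene Pon1 (-0.46, SE 0.06), whose product rides on HDL, and Apon (-0.37, SE 0.04). Apol7a (-0.37), Pon3 (-0.24), Apoh (-0.24), Apof (-0.22) and Apol8 (-0.17) were also lower. Apol8 kept its call in only 15 of 25 alternatives. Clu (0.01) and Apod (-0.04) did not pass. Apobr of this list is also counted among the receptor genes below, and Pon1 among those for remodelling in plasma.

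With every array shifted to equal hepatocyte markers, Apoa1 (-0.04, adjusted p = 0.413 by limma) and Apob (0.03, adjusted p = 0.588) no longer passed. On that scale Apoa4 remained higher (1.81) and Apom lower (-0.64). Apoc3 (0.32), Apoa5 (0.22), Apoe (0.21), Apoc1 (0.21) and Apoa2 (0.19) then passed as higher, so that 6 members were higher and 1 lower. Of the further list, Saa4 (-0.40), Apoc4 (-0.26), Pon1 (-0.23) and Apon (-0.14) stayed lower on that scale. On it 6 genes were higher, among them Apol10b (0.36), Apool (0.34) and Apobr (0.34), and none of the 6 passed on the deposited values. Of these, Apol10b had means of only 4.16 in GFP and 4.30 in ChREBP livers, Apol10a 4.37 and 4.38, and Apol7c 4.37 and 4.47. All these means are below the lowest array median of 5.96. Of all genes 52.7% were then higher and 3.2% lower. The calls of Apoa4 and Apom were thus the same on either scale, and those of Apoa1, Apob and the 5 members that had not passed were not.

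**Figure D4:**
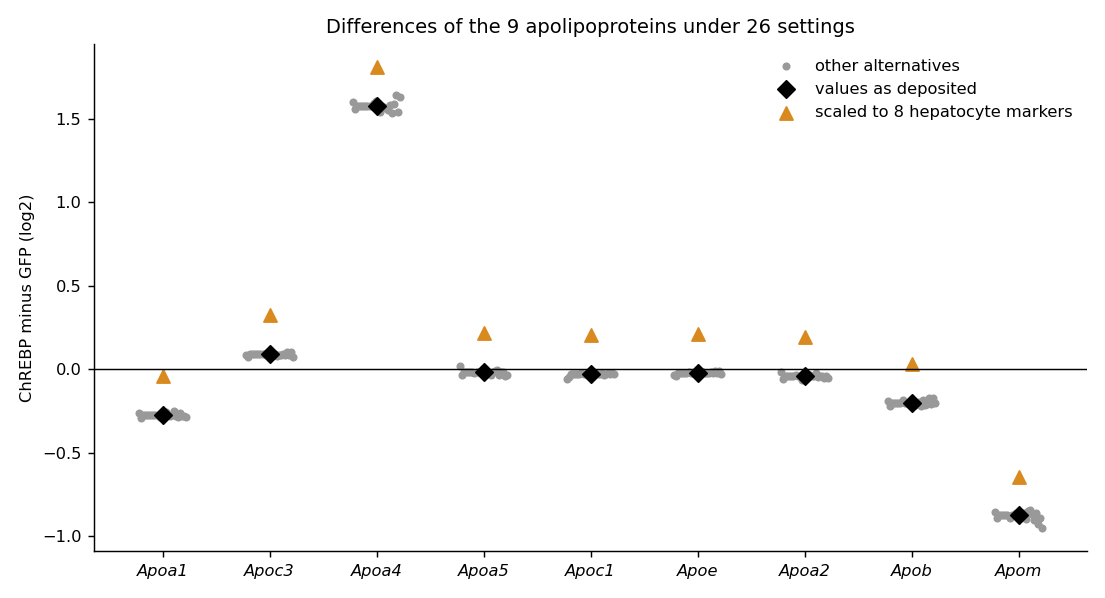
Difference between ChREBP and GFP livers (log2 scale) for each measured apolipoprotein with the values as deposited (black diamonds), with arrays scaled to 8 hepatocyte markers (orange triangles) and under every other alternative (grey points). The triangles lie 0.23 above the diamonds, which takes Apoa1 and Apob close to 0 and leaves Apoa4 high and Apom low.

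Genes whose products load, remodel and take up lipoproteins passed in both directions. In each of the lists that follow, the counts stand beside 13.3% of all genes higher and 13.7% lower as deposited, and beside 52.7% higher and 3.2% lower when scaled to the hepatocyte markers. Of 26 genes for assembly and secretion 6 were higher and 9 lower (57.7% passed, beside 27% of all genes). The smallest p belonged to the fatty acid transporter gene Cd36 (1.99), the triglyceride synthesis gene Dgat1 (1.19) and the carboxylesterase gene Ces3a (-1.30). Mttp, whose product lipidates Apob, rose by 0.32 (SE 0.06). Scaled to the hepatocyte markers the counts of this list were 13 higher and 3 lower (Ces3a, Sec23b and Mia3), with Mttp at 0.55.

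Of 15 genes for remodelling in plasma 4 were higher, Lpl (1.35), Furin (0.50), Pltp (0.80) and Lipg (0.84), and 4 lower, Pon1, Bmp1 (-0.31), Lcat (-0.29) and Pcsk5 (-0.13). Lcat esterifies cholesterol on HDL with Apoa1 as its cofactor, so that enzyme and cofactor were both lower. Lcat, Bmp1 and Pcsk5 no longer passed when scaled to the hepatocyte markers (6 higher, and Pon1 as the 1 lower), and Pcsk5 kept its call in 15 of 25 alternatives. Lpl is also counted among the macrophage markers above.

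Of 25 receptor and sterol efflux genes 36% passed, beside 27% of all genes. Of these 6 were higher, those with the smallest p being Cd36, the VLDL receptor gene Vldlr (1.49), which binds Apoe, and the scavenger receptor gene Msr1 (0.51). Lrp1 (-0.38), a remnant receptor for Apoe, Sdc1 (-0.21), a proteoglycan that binds remnants, and Abcg8 (-0.41) were lower. Scaled to the hepatocyte markers none of these 3 passed, and the list had 13 higher, close to the share of all genes on that scale, and 0 lower. Abcg8 also lost its call with the replicate block and without ChREBP 4 and ChREBP 5, and Abcg1 (0.18), one of the 6 higher, kept its call in only 11 of 25 alternatives. Of 28 regulators of apolipoprotein genes 2 were higher, Mlxipl and Pparg (1.21), and 10 lower, of which Foxa1 (-0.67), Thrb (-0.50) and Rora (-0.33) had the smallest p. The rise of Mlxipl was set by the design, because the virus delivered ChREBP. Hnf4a (-0.33) and Creb3l3 (-0.35), factors known to drive Apoa4, were among those lower, but with the hepatocyte scaling they did not pass (-0.09 and -0.12), and the list then had 11 higher and 2 lower, Foxa1 and Thrb.

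Within a group the 9 members varied little, with a median SD of 0.06 beside 0.12 for all genes. The members are bright, with group means from 9.90 (Apom in ChREBP livers) to 13.51 (Apoa2 in GFP livers). Their SD was not compared with that of genes of like level. Over the 6 arrays of a group, 21 of 36 pairs of members correlated positively in GFP livers (median Pearson r 0.05) and 31 of 36 in ChREBP livers (median r 0.38). The pairs share the same arrays and are not independent, and the share of positive pairs among all genes was not computed. The summed hepatocyte level was lowest on ChREBP 2 and ChREBP 5 (15.41 on each), and so were Apoa1, Apob and Apoc1. The part of such differences between arrays in these correlations was not tested. Of the 72 relations 6 had an exact permutation p under 0.05, and none passed the adjustment over all 72 (smallest adjusted p = 0.475). With only 6 arrays no pair standing alone could have passed that adjustment, however close its relation, so this outcome says little. The highest correlation, that of Apoc3 and Apoe in ChREBP livers, had r = 0.94 and Spearman's rho = 0.89 (exact permutation p = 0.0194 and 0.0333, n = 6). Its r was 0.34 once the 2 arrays farthest from the median of Apoc3 were left out, so that it rests on those arrays. The genes most like Apoa4 over the 12 arrays, once each group mean was taken off, were Slc7a4 (r = 0.89, rho = 0.90), Prss38, Ifna2, Clnk and Olfr734 (r = 0.87 to 0.89). They were picked as the highest of all genes, their mean values were 4.52 to 6.17, and none passed between the groups.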

How the data were processed

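Liver RNA of 12 mice, 6 per virus, was amplified with a Nugen kit, labelled with biotin and read on Affymetrix arrays. The values deposited by the authors are on the log2 scale. The processing notes of the labels name RMA and Partek without versions, and RMA corrects background, normalizes by quantiles and summarises the probes of a row. Array medians lay between 5.96 and 6.05, so values were not centred per gene. Probe signals and detection calls were not used here, and the number of arrays limits the precision. No source used here gives scan dates, so array batches were not examined. The study's array methods describe another virus and another array, and its analysis of variance was run as an alternative.

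Of 35556 rows, 21789 carry 1 gene symbol, 1621 several and 12146 none in the platform annotation, which is that of GEO. Symbols were updated through the Entrez ID (21698 rows matched in the RefSeq gene table of GRCm38.p6, used for names and gene order), and a gene with several rows was represented by its brightest. Each member measured has 1 such row. The groups were compared by limma 3.58.1 under R 4.3.3, fitting lmFit and then eBayes without covariates, two-sided, and by exact permutation tests over the arrays. Summed marker levels are the log2 of summed linear values. Alternatives were 3 further scalings, the 25% dimmest genes left out, the mean of a gene's rows, all rows tested, trended and robust moderation, array weights, the study's analysis of variance, a block for the replicate number, and arrays left out singly or in pairs.

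The members, the gene lists and the tests were chosen with earlier results of these data known. All members are named. Of each other list the 3 genes that passed with the smallest p are named, with Mlxipl and the genes needed to complete a count of 5 or fewer. Further genes named beside these (the other genes of the further list that passed, Abcg1, Mttp, Hnf4a, Creb3l3, Rora, Thrb, Clu, Apod, several markers and genes of the further list that rose with the hepatocyte scaling) were picked after their values were seen. Replicates are separate mice per the labels.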

Additional observations from a re-analysis of the deposited data

How the results depend on the processing

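The calls of Apoa4 and Apom were the same in all 25 alternatives, with differences of 1.54 to 1.81 and of -0.95 to -0.64. Those of Apoa1 and Apob were the same in 24 of 25, the exception being the scaling to hepatocyte markers, where Apoa1 stood at -0.041 and Apob turned to 0.031. That scaling, chosen after the data were seen, also turned Apoa2 (0.19), Apoa5 (0.22), Apoc1 (0.21) and Apoe (0.21) upward and took Apoc3 past the threshold (0.32), with 6 members higher and 1 lower and 10503 genes higher and 638 lower over the table. Apoa5 turned to 0.018 (adjusted p = 0.801) with quantile normalization repeated. Apoc3 passed at 0.091 with trended moderation or the analysis of variance, so that 2 members were higher. Leaving out any 1 array changed no call of the 9 members. Deviations of same-numbered arrays correlated at only -0.06 to 0.25, the highest for replicate 6, where ChREBP 6 was also the array most like GFP 6. Such correlations cannot tell whether mice were handled in pairs. With the replicate block Apoa4 had a difference of 1.58 (adjusted p = 3.15e-06) and no call of a member changed, while 2380 genes were higher and 2059 lower over the table, against 2645 and 2730 without it. Whether signals near the top of the scale, those of Apoa2, Apoa1, Apoe and Apoc1, read a change in full was not tested.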
